A study of Arabidopsis thaliana with 8 samples.

Results

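Aux/IAA proteins are short-lived nuclear repressors of the auxin response. In the absence of auxin they bind auxin response factors (ARFs), the transcription factors of the pathway, and recruit TOPLESS co-repressors to their target promoters. Auxin joins an Aux/IAA protein to a receptor of the TIR1/AFB family, which leads to its destruction and frees the ARFs, and many Aux/IAA genes are themselves among the first genes that auxin switches on, so that their transcripts serve as a readout of the response and their proteins as its brake. Described here are 10 such early response genes, IAA1, IAA2, IAA3, IAA5, IAA6, IAA7, IAA14, IAA17, IAA19 and IAA29, which are the listed loci found among the 25665 loci named on the array. Each was represented by 1 probe, and all 10 probes were well above background on all 8 arrays.

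The study compared Columbia-0 Arabidopsis thaliana seedlings that carry 35S:WIN1:NOS, in which the strong viral 35S promoter drives WIN1 in most cell types, with vector control seedlings. WIN1 (also SHINE1) is an ERF-family transcription factor known for switching on genes of cutin and wax synthesis. The controls are called vector control in the sample titles and wild type in the genotype field. Both groups were whole seedlings 2 weeks old, on MS agar with 1% sucrose, under 16 h light and 8 h dark at 23 °C, with no other agent named. There were 4 samples a group, each hybridised to a single-colour Agilent array from 1 µg of total RNA. Seedlings shared a plate and several were pooled for each sample. No label says that the replicates came from separate plates or cultures, so every p-value below rests on the variation among these 4 and 4 samples, some or all of it possibly technical. The labels do not say how many transgenic lines the 35S:WIN1 samples came from.

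The transgene was as labelled: the WIN1 level, as the log2 of its signal relative to the 75th percentile of the array, was 4.85 ± 0.83 (SD, n = 4) in 35S:WIN1 and -8.21 ± 1.48 (SD, n = 4) in the controls, where it stood well above background on 1 array of the 4. All levels below are on this scale, on which 0 is the 75th percentile, and all differences are 35S:WIN1 minus vector control. The 4 arrays of 35S:WIN1 were all on one slide and the 4 of the controls on a second, and the effects of slide and of genotype cannot be told apart. The 75th percentile of the signal ran from 997 to 2490 in 35S:WIN1, with replicates 1 and 2 the dimmest arrays at 997 and 1269, and from 1790 to 2354 in the controls. When the arrays were scaled to 8 spike-in probes in place of the 75th percentile, the median difference over all genes moved from -0.04 to -1.68, and with the values as the authors deposited them it was -0.45. Directions below are therefore relative to the bulk of the genes on the array.

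The transcripts of the 10 early genes did not move together. IAA2 and IAA19 were higher in 35S:WIN1 (both reversed with spike-in scaling), IAA1, IAA3 and IAA5 were lower, and IAA6, IAA7, IAA14, IAA17 and IAA29 did not pass the test (limma, adjusted p under 0.05 by Benjamini-Hochberg over 20443 genes). Among all 20443 genes tested, 35.3% passed in either direction, 15.1% higher and 20.2% lower, so 5 of 10 stands beside a comparison in which 7216 genes were called. The median difference of the 10 was -0.07, with 5 above 0 and 5 below, against -0.04 over all genes tested. The groups did not overlap for 2 of the 10, IAA1 and IAA5, against 35.7% of all genes. In RNA of whole seedlings, fewer cells of a type and less RNA per cell cannot be told apart.

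**Figure D1:**
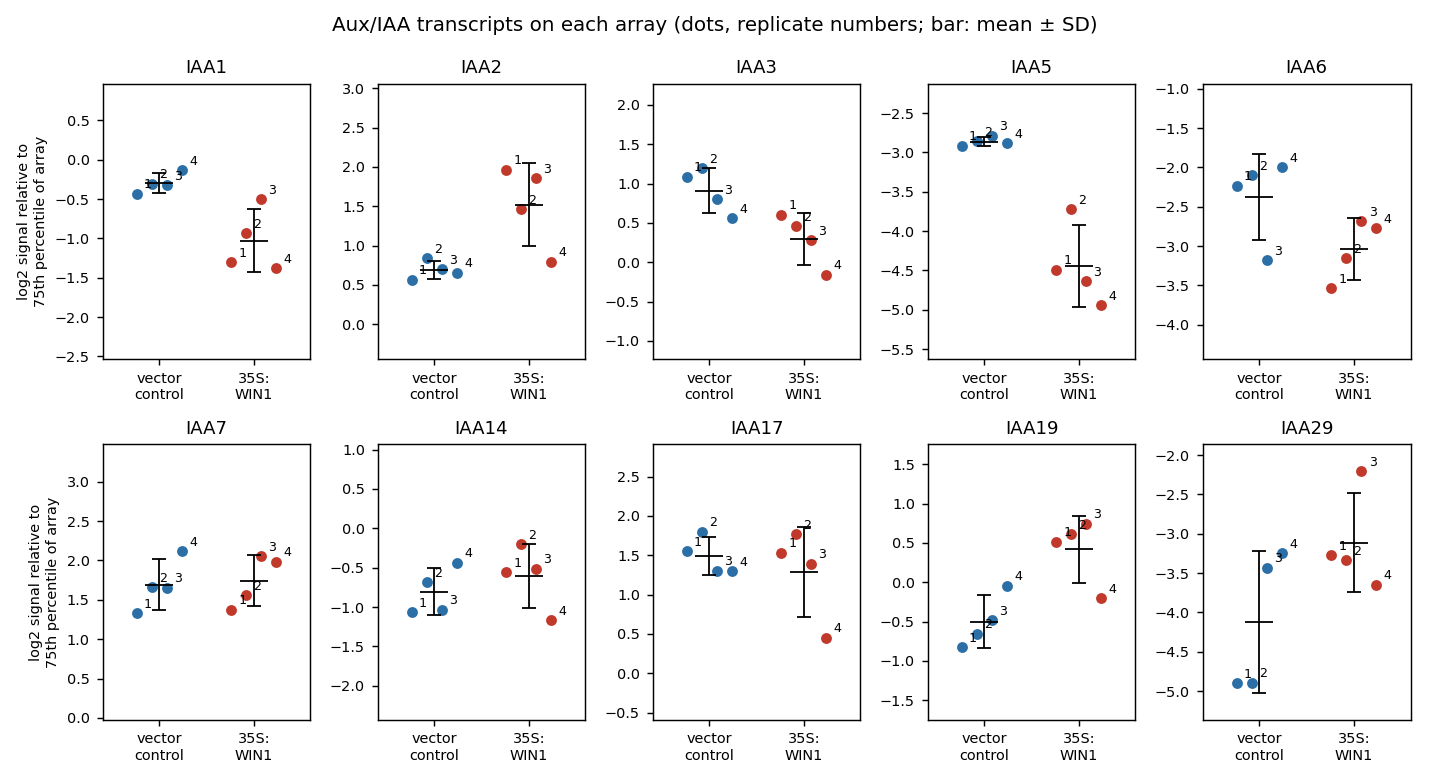
Level of each of the 10 early Aux/IAA transcripts on each array, as log2 signal relative to the 75th percentile of the array, for vector control (blue) and 35S:WIN1 (red), with dots numbered by replicate and bars at the mean ± SD of 4 arrays. Each panel spans the same number of log2 units around its own middle, and the groups are separate for IAA1 and IAA5 only.

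Among the genes that were lower, IAA5 had the largest difference and the smallest p. IAA5 (AT1G15580, chromosome 1) is one of a trio with IAA6 and IAA19 known from work on drought tolerance. Its level was -4.49, -3.72, -4.64 and -4.94 in 35S:WIN1 replicates 1 to 4, and -2.92, -2.86, -2.79 and -2.89 in the controls. The control arrays lay close together, and every 35S:WIN1 array was below all of them. The group means were -4.45 ± 0.52 and -2.86 ± 0.06 (SD, n = 4 each), a difference of -1.59 (SE 0.24, 95% interval -2.13 to -1.04), or 3.0-fold lower, with a limma adjusted p of 0.00197. The call held in all 20 other settings tried, with a limma adjusted p of at most 0.00917, but the size of the difference did not: it was -0.92 with normexp background correction and -3.22 with spike-in scaling. IAA5 was also the only one of the 10 that stayed called with the deposited values.

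IAA1 (AT4G14560, chromosome 4), whose gain-of-function allele axr5 makes plants resistant to auxin, was at -1.30, -0.94, -0.50 and -1.38 in 35S:WIN1 and at -0.43, -0.30, -0.32 and -0.13 in the controls. All 35S:WIN1 arrays were below all control arrays, with replicate 3 only just so. The means were -1.03 ± 0.40 and -0.30 ± 0.12 (SD, n = 4 each), a difference of -0.73 (SE 0.20, 95% interval -1.18 to -0.28), or 1.66-fold lower, with a limma adjusted p of 0.0213. The call was lost without 35S:WIN1 replicate 1 (limma adjusted p 0.0587), without control replicate 2 (0.0502) or control replicate 4 (0.0535), without both dim arrays of 35S:WIN1 (0.114) and with the deposited values (0.0743). Its direction was the same in each of these.

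IAA3 (AT1G04240, also SHY2), known for restraining the size of the root meristem where cytokinin and auxin meet, was at 0.60, 0.46, 0.28 and -0.16 in 35S:WIN1 and at 1.09, 1.20, 0.80 and 0.56 in the controls. The groups overlapped, since 35S:WIN1 replicate 1 was above control replicate 4. The difference was -0.62 (SE 0.20, 95% interval -1.08 to -0.15), or 1.53-fold lower, with a limma adjusted p of 0.0454, just under the threshold. Of the 8 fits that leave out 1 array, the call held without 35S:WIN1 replicate 1 (0.0435) and without control replicate 4 (0.0331), and in the other 6 the adjusted p was 0.0620 to 0.114. It was also lost with median centring (0.0832), without the detection filter (0.0642) and with the deposited values (0.0600).

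Of the genes that were higher, IAA19 (AT3G15540, chromosome 3), whose dominant msg2 alleles block the bending of hypocotyls toward light and against gravity, had the smaller p. Its level was 0.51, 0.61, 0.74 and -0.20 in 35S:WIN1 and -0.82, -0.65, -0.48 and -0.04 in the controls. Replicates 1 to 3 of 35S:WIN1 were above every control, while replicate 4 fell among the controls. The means were 0.42 ± 0.42 and -0.50 ± 0.34 (SD, n = 4 each), a difference of 0.92 (SE 0.24, 95% interval 0.36 to 1.48), or 1.89-fold higher, with a limma adjusted p of 0.0211. Without 35S:WIN1 replicate 4 the difference was 1.12 (0.00312), and the call also held without control replicate 3 (0.0486) or 4 (0.0157). In the other 5 fits that leave out 1 array the adjusted p was 0.0530 to 0.0589; without both dim arrays the difference was 0.77 (0.139), with the deposited values 0.52 (0.387), and with spike-in scaling -0.72 (0.208).

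IAA2 (AT3G23030, chromosome 3), the closest relative of IAA1, was at 1.96, 1.46, 1.86 and 0.80 in 35S:WIN1 and at 0.57, 0.84, 0.70 and 0.66 in the controls. As for IAA19, replicates 1 to 3 of 35S:WIN1 stood above the controls and replicate 4 lay within their range. The means were 1.52 ± 0.53 and 0.69 ± 0.11 (SD, n = 4 each), a difference of 0.83 (SE 0.24, 95% interval 0.27 to 1.39), or 1.78-fold higher, with a limma adjusted p of 0.0312. Without 35S:WIN1 replicate 4 the difference was 1.07 (0.00127), whereas leaving out any other single array took the adjusted p to between 0.0541 and 0.0789. Without both dim arrays it was 0.64 (0.164), with the deposited values 0.43 (0.443) and with spike-in scaling -0.81 (0.157).

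The remaining 5 genes did not pass. IAA7 (AT3G23050, also AXR2), IAA14 (AT4G14550, also SOLITARY-ROOT) and IAA17 (AT1G04250, also AXR3) belong to one branch of the family, and stabilised forms of each disturb root growth, root hairs or lateral roots. IAA7 was at 1.38, 1.56, 2.05 and 1.98 in 35S:WIN1 and at 1.33, 1.66, 1.66 and 2.12 in the controls, a difference of 0.05 with a 95% interval of -0.44 to 0.54. IAA14 was at -0.56, -0.20, -0.51 and -1.17 against -1.07, -0.68, -1.03 and -0.43, a difference of 0.20 with an interval of -0.33 to 0.72. The groups overlapped throughout for both. IAA17 was at 1.53, 1.77, 1.39 and 0.45 against 1.55, 1.80, 1.305 and 1.299, a difference of -0.20 with an interval of -0.84 to 0.44. Here 35S:WIN1 replicate 4 was far below the other 7 arrays, and without it the difference was 0.08. All 3 intervals reach well to either side of 0, so these data do not show that the 3 genes were unaffected.

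IAA6 (AT1G52830, also SHY1) was at -3.54, -3.16, -2.68 and -2.78 in 35S:WIN1 and at -2.23, -2.10, -3.18 and -1.99 in the controls. Only control replicate 3 lay among the 35S:WIN1 arrays. The difference was -0.66 (SE 0.30, 95% interval -1.34 to 0.02; limma adjusted p 0.117), and without that array it was -0.93 (limma adjusted p 0.0213). IAA29 (AT4G32280), a gene known as a target of the light- and warmth-responsive PIF factors, was at -3.27, -3.34, -2.21 and -3.65 in 35S:WIN1 and at -4.90, -4.89, -3.43 and -3.25 in the controls. Control replicates 1 and 2 were far below the other 2, so the spread within the control group was about as large as the difference between groups. That difference was 1.00 (SE 0.48, 95% interval -0.09 to 2.10; limma adjusted p 0.136).

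**Figure D2:**
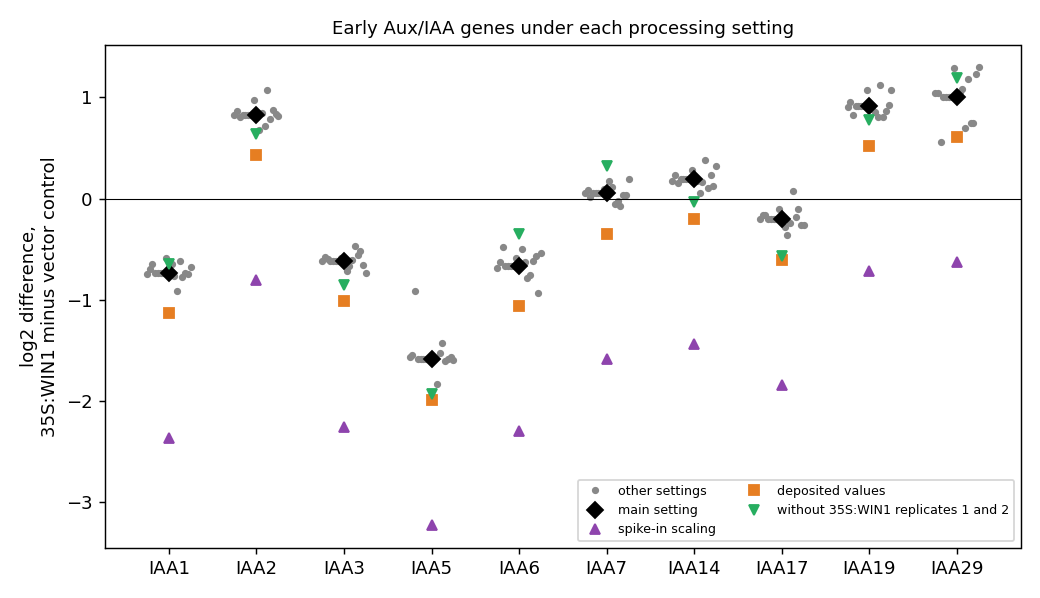
Difference between 35S:WIN1 and vector control (log2, vertical axis) of each of the 10 early Aux/IAA genes under every processing setting, with the main setting as black diamonds, spike-in scaling as purple triangles, deposited values as orange squares, the fit without 35S:WIN1 replicates 1 and 2 as green triangles and the other settings as grey dots. IAA1, IAA3, IAA5 and IAA6 lie below 0 in each setting. IAA2, IAA7, IAA14, IAA19 and IAA29, above 0 in the main setting, all fall below it with spike-in scaling.

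Since a ratio of 2 probes on the same array does not depend on how the array is scaled, pairs of the 10 genes were also compared within arrays, with each ratio expressed relative to its mean in the controls. The pairs were chosen after the values had been seen, by position and relatedness. IAA1 and IAA14, IAA2 and IAA7, and IAA3 and IAA17 are neighbours on chromosomes 4, 3 and 1, each with 1 other gene model, a long non-coding RNA, between them in the TAIR10.1 annotation. IAA1 and IAA2 are sister genes, and IAA5, IAA6 and IAA19 form another branch of the family. This gave 7 pairs, and with 4 arrays against 4 an exact permutation test (two-sided) cannot go below p = 0.0286. IAA14/IAA1, IAA2/IAA1 and IAA19/IAA5 were at that floor, and no other pair was. Their p became 0.0667 after Benjamini-Hochberg adjustment over the 7, so no pair passed.

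IAA19 over IAA5 had the largest change. Relative to the control mean, the log2 ratio was 2.65, 1.97, 3.02 and 2.38 on the 35S:WIN1 arrays and -0.27, -0.16, -0.06 and 0.48 on the control arrays. The groups were far apart, with a mean difference of 2.50, or 5.67-fold (exact permutation p 0.0286, adjusted 0.0667); with normexp background correction it was 1.74. IAA2 over IAA1 was 2.28, 1.41, 1.37 and 1.19 against 0.01, 0.16, 0.03 and -0.20, again with no overlap and a mean difference of 1.56, or 2.95-fold (exact permutation p 0.0286, adjusted 0.0667). 35S:WIN1 replicate 4, which lay among the controls for IAA2 and IAA19 alone, was apart from them in both ratios. On that array IAA1 and IAA5, the second genes of these ratios, were at -1.38 and -4.94, the lowest of all 8 arrays. The ratios therefore do not show that IAA2 or IAA19 was higher there.

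Within the neighbouring pairs, IAA14 over IAA1 was 0.93 higher in 35S:WIN1, with arrays at 0.50 to 1.26 against -0.20 to 0.21 (exact permutation p 0.0286, adjusted 0.0667), and 0.61 higher without the dim arrays. IAA17 over IAA3 differed by 0.41, with the 35S:WIN1 arrays at 0.03 to 0.73 and the controls at -0.11 to 0.16, and IAA7 over IAA2 by -0.78, at -1.59 to 0.19 against -0.24 to 0.46. The groups overlapped in both of these. Among the trio, IAA19 over IAA6 differed by 1.58, at 0.70 to 2.18 against -0.47 to 0.82, and IAA6 over IAA5 by 0.92, at 0.08 to 1.68 against -0.88 to 0.41, also with overlap.

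**Figure D3:**
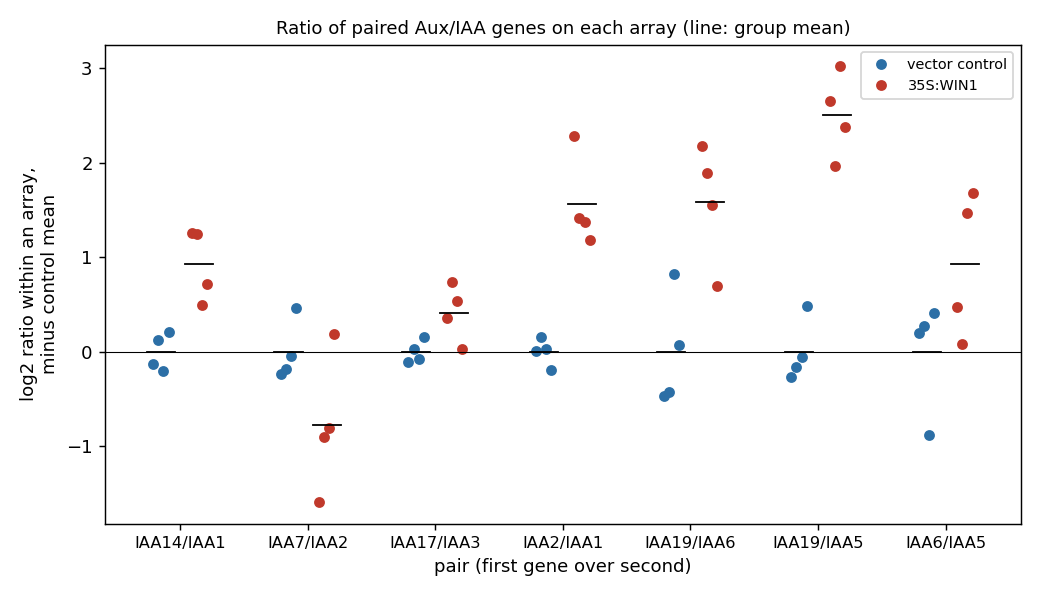
Log2 ratio of 2 Aux/IAA genes on each array (vertical axis), relative to its mean over the control arrays, for 7 pairs (horizontal axis, first gene over second), with dots for arrays and lines for group means. IAA14/IAA1, IAA2/IAA1 and IAA19/IAA5 are apart between 35S:WIN1 (red) and vector control (blue), and the other 4 pairs overlap.

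By a fixed measure of likeness, the root mean square difference of the centred levels over the 8 arrays among 20270 genes, the patterns nearest to that of IAA5 were SAUR24 (0.205), LBD4 (0.218) and AT2G01610 (0.230), with differences of -1.74, -1.50 and -1.45. The nearest to IAA19 were AT5G06930 (0.113), AT5G11870 (0.130) and AT3G62570 (0.144), with differences of 0.86, 1.03 and 1.02. Since the measure takes in the difference between the groups, the likeness of these differences follows from the choice and is no separate result. SAUR24 is a small auxin-up RNA, another classical kind of early auxin transcript, and LBD4 is a LOB-domain transcription factor.

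The rest of the family gives the setting for the 10. Of the other 19 Aux/IAA genes 18 were tested, since IAA15 was not above background, and 4 were higher, 1 was lower and 13 did not pass, with a median difference of 0.20. IAA26 (also PAP1, a phytochrome-associated protein) was at 2.09 ± 0.16 in 35S:WIN1 and 1.40 ± 0.07 in the controls (SD, n = 4 each), a difference of 0.69 (SE 0.11, limma adjusted p 0.00247; -0.95 with spike-in scaling). IAA34 differed by 1.83 (SE 0.29, 0.00258; above background on 3 of 4 control arrays), IAA32 by 1.40 (SE 0.36, 0.0186; -0.23 with spike-in scaling) and IAA20 by 2.01 (SE 0.66, 0.0462). None of the 4 kept its call with spike-in scaling, where IAA34 was at 0.20 (0.730) and IAA20 at 0.38 (0.509). IAA32 also lost its call in 4 other settings, among them without 35S:WIN1 replicate 1 or control replicate 1 (adjusted p at most 0.0524 for these). IAA26 lost its call in 1 other setting (limma adjusted p 0.609) and kept it in all 8 fits that leave out 1 array. IAA20, IAA32 and IAA34 are known as unusual members without the degron through which auxin receptors bind the others. IAA20 ran from -4.61 to -1.19 in 35S:WIN1 and from -5.18 to -4.15 in the controls, and its call held in 1 of the 8 fits that leave out 1 array, with adjusted p from 0.00107 to 0.115. IAA8 was lower by a difference of -0.43 (SE 0.14, limma adjusted p 0.0445), with -0.54 at its second probe, and kept its call in 2 of those 8 fits. Over all 28 tested Aux/IAA genes, 6 were higher and 4 lower, with a median of 0.16. Among all genes tested, 15.1% were called higher and 20.2% lower, or 35.3% in either direction, with a median of -0.04.

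**Figure D4:**
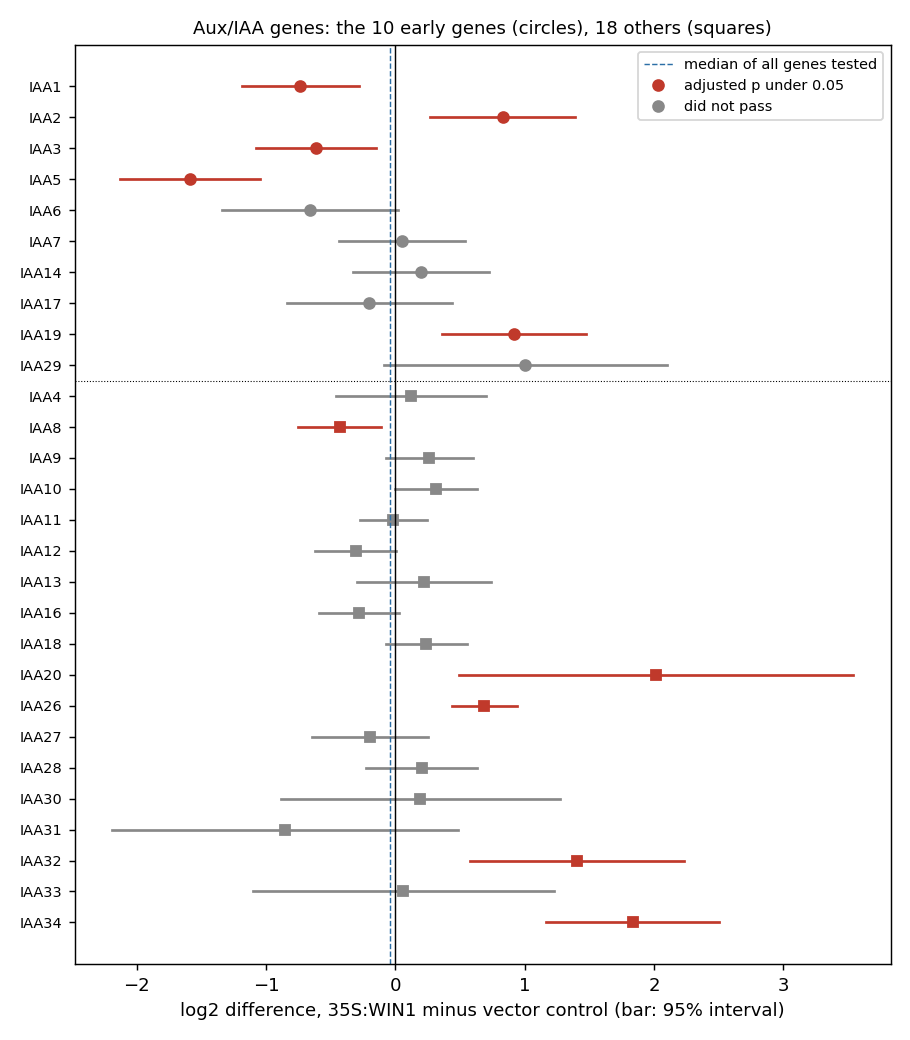
Difference between 35S:WIN1 and vector control (log2, horizontal axis) with its 95% interval for the 10 early Aux/IAA genes (circles, above the dotted line) and 18 other Aux/IAA genes (squares), red where the limma adjusted p was under 0.05. Both sets hold genes on each side of 0; of the called genes right of 0, IAA2, IAA19, IAA26 and IAA32 reverse with spike-in scaling, and IAA20 and IAA34 stay above 0 without passing.

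The partners of Aux/IAA proteins were read next, beside the 15.1% of all genes called higher and the 20.2% called lower. None of the 6 receptor genes of the TIR1/AFB family passed the limma test, with a median difference of -0.08; 1 of them had an unadjusted p under 0.05, fits with trend and robust variance or with array weights each called 1, and the fit without 35S:WIN1 replicate 4 called 2, 1 higher and 1 lower. With spike-in scaling all 6 were called lower. Of 15 ARF genes tested, none was higher and 3 were lower. ARF3, a factor of leaf and flower polarity, differed by -0.69 (SE 0.12, limma adjusted p 0.00388), ARF8 by -0.42 (SE 0.12, 0.0264) and ARF10 by -0.33 (SE 0.10, 0.0408). The median of the ARF genes was 0.05, and the number called was 1 with median centring, without 35S:WIN1 replicate 1, without control replicate 1 or without both dim arrays, 0 with the deposited values, 5 (1 higher, 4 lower) with normexp or with trend and robust variance, and 14, all lower, with spike-in scaling. ARF3 kept its call in all 8 fits that leave out 1 array, ARF8 in 3 and ARF10 in 2. Of 5 TOPLESS co-repressor genes, TPL (0.54, SE 0.09, limma adjusted p 0.00318) and TPR3 (0.97, SE 0.22, 0.0115) were higher, at -1.09 and -0.67 with spike-in scaling; 0 of the 5 were called with the deposited values and 1 without both dim arrays.

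Other early auxin transcripts were set beside the 10 as a second readout. The GH3 genes encode enzymes that join auxin to amino acids and so lower its free level. Of 7 tested, 5 were higher and 2 did not pass, beside 15.1% of all genes higher and 20.2% lower. Their median difference was 1.37 against -0.07 for the 10 Aux/IAA genes, values that are given as a description with no test between the lists. GH3.5 was at 1.57 ± 0.20 in 35S:WIN1 and -0.12 ± 0.45 in the controls (SD, n = 4 each), a difference of 1.69 (SE 0.22, limma adjusted p 0.00114). GH3.3 differed by 1.54 (SE 0.28, 0.00444), GH3.2 by 1.37 (SE 0.28, 0.0072) and GH3.1 by 1.73 (SE 0.40, 0.0126). The fifth, GH3.6, named here to complete the count, differed by 1.19 (0.0142). The 2 that did not pass, GH3.9 (-0.70, limma adjusted p 0.0746) and GH3.17 (-0.29, 0.199), were below 0. With the deposited values or without the dim arrays 2 GH3 genes were called, both higher. With spike-in scaling none was called higher and 2 were called lower. Those 2 did not include GH3.5 at 0.05, GH3.1 at 0.09, GH3.3 at -0.09 or GH3.2 at -0.27 (limma adjusted p 0.645 to 0.926).

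Of 6 other early auxin targets tested, 3 were higher and 2 lower, beside 15.1% and 20.2% of all genes. The 5 calls became 3 without 35S:WIN1 replicate 1, without control replicate 4, without both dim arrays or with the deposited values. With spike-in scaling they became 2, both lower. LBD16, a LOB-domain factor of lateral root initiation downstream of ARF7 and ARF19, was at -1.24 ± 0.58 in 35S:WIN1 and -3.89 ± 0.45 in the controls (SD, n = 4 each), a difference of 2.65 (SE 0.32, limma adjusted p 0.000812; 1.01 and no longer called, at 0.0753, with spike-in scaling). DAO1, an enzyme that oxidises auxin, differed by 1.11 (SE 0.17, 0.00217; -0.53 with spike-in scaling), and kept its call in all 8 fits that leave out 1 array. LBD33 was above background on only 3 arrays of 35S:WIN1 and 1 control array, so the size of its difference is uncertain. It was 2.70 as fitted (SE 0.79, limma adjusted p 0.0302) and 1.79 with values below the detection floor raised to it. That floor is the lowest level, on each array, of any probe well above background. The call of LBD33 held in 3 of those 8 fits, with adjusted p from 0.00450 to 0.0802. In the other direction, the ethylene synthesis gene ACS4 was at -5.02 ± 0.40 (SD, n = 4) in the controls and not well above background on any 35S:WIN1 array. It thus entered the test through the controls alone, and its call (limma adjusted p 0.000123) sets detected values against undetected ones. With values below the detection floor raised to it, ACS4 was 4.0-fold lower in 35S:WIN1, which is not a firm lower bound. The second lower gene, HAT2, a homeodomain factor named here to complete the count, differed by -0.76 (0.0317).

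Auxin synthesis and the growth factors upstream of several Aux/IAA genes were mixed too. Of 10 synthesis genes tested, YUC8, a flavin monooxygenase of the last step, was higher by a difference of 1.33 (SE 0.31, limma adjusted p 0.0119; -0.30 with spike-in scaling, and not called without both dim arrays). TAR2, an aminotransferase of the step before, differed by -1.14 (SE 0.16, 0.00166) and YUC4 by -1.10 (SE 0.34, 0.0363; detected above background by 3 arrays of 35S:WIN1). TAR2 kept its call in all 20 other settings, while YUC4 lost it in 11 of 19 and kept it in 2 of the 8 fits that leave out 1 array, with adjusted p up to 0.0942 in those. Of 5 genes for elongation factors, BZR1 of the brassinosteroid pathway was higher (0.54, SE 0.14, limma adjusted p 0.0197; -1.09 with spike-in scaling) and PIF7 was lower (-0.68, SE 0.17, 0.0177). BZR1 lost its call without 35S:WIN1 replicate 1 or 3 or control replicate 1 or 2, so that 1 elongation gene was called in each of those fits, against 4 without 35S:WIN1 replicate 4 and 0 with the deposited values or without both dim arrays. The other 3 elongation genes did not pass: PIF5 (1.10, limma adjusted p 0.0705), PIF4 (1.09, 0.207) and BES1 (0.09, 0.504). In all, 20 of the 54 genes tested on these 7 pathway lists were called, 12 higher and 8 lower, beside the 35.3% of all genes.

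**Figure D5:**
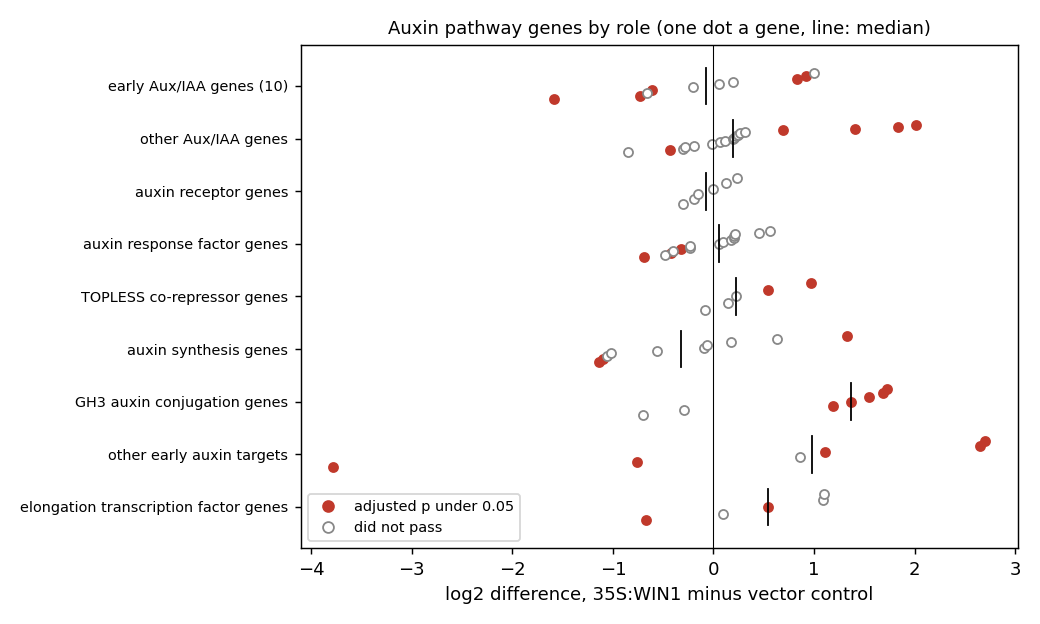
Difference between 35S:WIN1 and vector control (log2, horizontal axis) of each tested gene of the early Aux/IAA genes, the other Aux/IAA genes and the 7 auxin pathway lists (rows), filled red where the limma adjusted p was under 0.05, with a line at each list's median. The GH3 median is at 1.37 and that of the 10 early Aux/IAA genes at -0.07; with spike-in scaling the median over all genes was -1.68.

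Because Aux/IAA transcripts differ between organs, markers of root and leaf were read from the same arrays. The summed signal of 7 root markers, in multiples of the 75th percentile, was 53.0 to 86.2 in 35S:WIN1 and 36.2 to 49.9 in the controls, but PYK10, an abundant root beta-glucosidase, made up 79.4% to 91.9% of it on every array. Without PYK10, a sum taken after the values were seen, the other 6 markers came to 6.24 to 7.79 in 35S:WIN1 and 6.87 to 7.76 in the controls, and the groups overlapped. The mean log2 level of the 7 root markers overlapped too, at -0.97 to 0.02 against -0.23 to -0.09. PYK10 was higher (0.79, limma adjusted p 0.0166; -0.85 with spike-in scaling), CASP1 of the Casparian strip was lower (-1.05, 0.0333; call kept in 3 of the 8 fits that leave out 1 array), and the other 5 did not pass, among them the root aquaporin TIP2;3 (-1.96, 0.0573). The summed signal of 7 leaf markers was 251 to 306 in 35S:WIN1 and 330 to 389 in the controls, and their mean log2 level was 2.24 to 3.11 against 3.401 to 3.579. Of the 7, 5 were lower and none higher, beside 20.2% of all genes lower and 15.1% higher. The other 2 lay above 0 and did not pass. They were RBCS1A (0.22, limma adjusted p 0.475), at 6.85 in 35S:WIN1 and 6.63 in the controls, and LHCB1.3 (0.15, 0.498). The 5 lower markers were GLK1 (-1.36), CA1 (-2.07), LHCB2.2 (-2.39 as fitted, -1.97 with the detection floor, since 2 arrays of 35S:WIN1 detected it above background), RCA (-0.43) and PSAF (-0.40). RCA kept its call in 5 and PSAF in 4 of the 8 fits that leave out 1 array. Every marker of either organ was well above background on at least 2 arrays of each group, none was at 0, and the part of organ makeup in the Aux/IAA differences was not tested.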

How the data were processed

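RNA of 8 samples was measured on single-colour Agilent arrays. The authors' deposited scanner files, made with Agilent Feature Extraction 9.1.3.1 per the file headers and the submitters' processing notes, give a processed signal per spot, a linear intensity already background-subtracted. A deposited value table held the same signals divided by one constant per slide, on a linear, uncentred scale. From the scanner files, control spots were left out, probes averaged and log2 intensity taken minus the 75th percentile of each array. Of 25665 loci, each represented by its brightest probe, those well above background on at least 4 arrays were kept, and 20443 were tested with limma 3.58.1 (lmFit, eBayes, R 4.3.3). No spot was saturated. All 101 listed loci matched the RefSeq table of TAIR10.1, used for names and neighbours only. Probe sequences were not used here, so cross-hybridisation between relatives was not assessed; the number of arrays limits the precision.

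The members and lists were chosen with earlier results of these data known. Named were all 10 members, other Aux/IAA genes that passed, at most 4 of each auxin list by smallest p, 3 nearest patterns for 2 members, WIN1 and the root and leaf markers. Alternatives were other scalings, background corrections, filters, probe rules, variance models, a replicate block and left-out arrays. The normexp alternative (offset 50) used median signals, since mean signals were not in the files used here. Replicate numbers did not pair the samples. The fit was tested on simulated data.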

Additional observations from a re-analysis of the deposited data

Results flagged for a closer look

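One value stood apart within its group. CA1, the leaf carbonic anhydrase marker, was at 5.64 on vector control replicate 1, while the other control arrays lay between 5.47 and 5.49. Its distance to the nearest other array was 0.889 of the group's whole range. In all 80 groups of 4 arrays were examined, for 40 named genes, and about 1 in 20 such groups is singled out by chance.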

How the results depend on the processing

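Over the whole array 7216 genes were called, against 17562 with spike-in scaling (402 higher, 17160 lower), 2993 with the deposited values, 30.2% of them higher against 42.7%, and 4318 without both dim arrays; leaving out 1 array gave 5255 to 8335. Of the 10 early Aux/IAA genes 5 were called, against 1 with the deposited values, 2 without both dim arrays, 3 with the replicate block (IAA2 and IAA19 lost) and 1 to 4 without 1 array; with spike-in scaling 7 were called, all lower. Of the other Aux/IAA genes 5 were called, against 14 with spike-in scaling, 2 with the deposited values, 3 without the detection filter, 3 with the replicate block, 2 without both dim arrays and 2 to 7 without 1 array. Of the pathway genes 20 were called, against 37 with spike-in scaling, 8 with the deposited values, 8 without both dim arrays and 14 to 26 without 1 array. The replicate block was no test of pairing: same-numbered samples deviated together with correlations of only -0.04 to 0.14.

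With spike-in scaling the sign turned for IAA2 (-0.81), IAA7 (-1.58), IAA14 (-1.44), IAA19 (-0.72), IAA29 (-0.63), IAA26 (-0.95), IAA32 (-0.23), TPL (-1.09), TPR3 (-0.67), GH3.3 (-0.091), GH3.2 (-0.27), YUC8 (-0.30), DAO1 (-0.53), BZR1 (-1.09) and PYK10 (-0.85). It also turned for IAA7 (-0.35) and IAA14 (-0.20) with the deposited values, for IAA14 (-0.035) without both dim arrays, for IAA7 in fits without 1 array (-0.068 to 0.20) and for IAA17 in such fits (-0.36 to 0.076). The cause was not tested. Over all 40 named genes and their settings, 620 values kept direction and side of the threshold, 150 kept direction but lost the call, 3 gained it and 22 turned. Signal over background limits ACS4, LBD33, LHCB2.2, YUC4 and IAA34 most.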

Other observations

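One array carried low Aux/IAA values. Within the 35S:WIN1 group, replicate 4 was the lowest of the 4 arrays for 8 of the 10 early genes, for 16 of the 18 other Aux/IAA genes tested and so for 24 of 28, or 85.7%. Over 20270 genes it was the lowest for 34.2%. It was the highest for none of the 28 Aux/IAA genes and for 32.7% of all genes. Within the control group the lowest array was replicate 1 for 14 of the 28, against 5481 of all 20270 genes. These arrays were examined after their values were seen, and no test was made.

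Without 35S:WIN1 replicate 4, 4 of the 10 early genes and 7 of the other Aux/IAA genes were called, and without any other single array 1 to 4 of the early genes and 2 to 4 of the others. Over the whole array, 8335 genes were called without that replicate and 5255 to 6211 without any other single array.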
